A study of Caenorhabditis elegans with 2 samples.

Results

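The sites described are the nuclear transfer RNA (tRNA) genes of Caenorhabditis elegans, examined in a chromatin immunoprecipitation sequencing (ChIP-seq) experiment on the protein F22D6.2. All 612 nuclear genes of biotype tRNA in the WBcel235 gene models were taken, out of 46890 nuclear genes, with 336 on chromosomes I to V and 276 on X. For each gene the highest deposited signal value was read among peak summits within 200 bp of the gene, first in the list made from both replicates pooled and then in the list of each replicate. A gene with no summit in that window is called not listed. The pooled list held 25982 nuclear summits, and its file name says that it contains background as well as peaks, so being listed is a lenient criterion. The stricter criterion was a summit in the set of 778 nuclear summits that passed the authors' irreproducible discovery rate threshold, called thresholded here. Those 778 summits were the ones with the highest values in the pooled list, from 80.31 upwards.

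Both samples came from whole young adult hermaphrodites of strain OP399 (unc-119(tm4063) III; wgIs399), 67 h after synchronization as starved L1 larvae from bleached parents. The animals carried F22D6.2 with a C-terminal GFP-FLAG tag, and sonicated chromatin was precipitated with an antibody to GFP. There were 2 biological replicates in 1 group, both of the same line, and the same control library served both. No untagged or mutant group was compared, and a tagged protein in whole animals does not show in which cells a site was occupied. The signal value was assigned by the peak caller, on a scale not given in the sources used here, so it ranks sites within 1 list and its size is not compared between lists. Read depth is unknown.

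Transfer RNA genes are transcribed by RNA polymerase III. Their promoter lies inside the gene, in an A box near the 5′ end and a B box near the 3′ end, both of which are bound by the factor TFIIIC; TFIIIC then places TFIIIB just upstream of the start, and TFIIIB recruits the polymerase, which ends transcription at a run of T on the coding strand. In the nematode these genes are scattered singly or in small clusters, many of them inside introns of protein-coding genes, and many are exact copies of each other.

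The sequences below were read from the RefSeq copy of the WBcel235 genome, 5′ to 3′ on the coding strand. They are the highest-valued copy of each of 9 groups of identical genes, shown because the same letters occurred at both high and unlisted positions. Capitals mark matches to the A box form TNGNNNANT within the first 30 bases and to the B box form GTTCNANNC within the last 30 bases, where N is any base. The lysine gene T23F1.t1 lies at chrV:15465086-15465158 (+) and the proline gene T23F1.t2 at chrV:15465225-15465296 (−), both between protein-coding genes.
T23F1.t1: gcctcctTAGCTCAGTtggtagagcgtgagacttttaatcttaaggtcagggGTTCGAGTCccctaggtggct
T23F1.t2: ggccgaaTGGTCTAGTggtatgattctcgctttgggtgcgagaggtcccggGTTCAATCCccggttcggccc
The glutamine gene R04A9.t1 lies at chrX:410391-410462 (+) in an intron of ZK1193.2. The arginine gene C18A11.t2 (chrX:8036685-8036757, −) and the serine gene C53C7.t1 (chrX:13046578-13046659, +) are intergenic. R04A9.t1 and C53C7.t1 have no match to the A box form.
R04A9.t1: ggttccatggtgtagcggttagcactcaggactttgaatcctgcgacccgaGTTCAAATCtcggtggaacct
C18A11.t2: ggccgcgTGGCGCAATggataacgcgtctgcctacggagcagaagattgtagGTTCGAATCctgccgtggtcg
C53C7.t1: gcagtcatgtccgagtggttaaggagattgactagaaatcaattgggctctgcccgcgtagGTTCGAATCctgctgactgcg
The alanine gene F15G9.t2 (chrX:9743747-9743818, +) lies in an intron of him-4, the histidine gene C06G1.t1 (chrX:16634830-16634901, −) in an intron of C06G1.1, the phenylalanine gene F22B7.t3 (chrIII:8653055-8653127, +) in an intron of F22B7.9, and the threonine gene R11B5.t1 (chrX:2528042-2528113, +) in an intron of tbc-12.
F15G9.t2: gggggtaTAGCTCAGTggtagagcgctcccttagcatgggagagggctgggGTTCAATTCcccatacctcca
C06G1.t1: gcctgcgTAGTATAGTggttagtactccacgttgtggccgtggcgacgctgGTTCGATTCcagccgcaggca
F22B7.t3: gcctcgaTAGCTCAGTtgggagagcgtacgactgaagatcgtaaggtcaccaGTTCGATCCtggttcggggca
R11B5.t1: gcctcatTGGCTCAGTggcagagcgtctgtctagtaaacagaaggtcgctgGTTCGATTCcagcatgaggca

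Most tRNA genes had a listed summit. In the pooled list 460 of the 612 genes (75.2%) had a summit within 200 bp, and 152 did not. By the same rule 28.7% of all nuclear genes were listed. Genomic tiles of 472 bp, the length of a typical tRNA gene with its window on both sides, were listed in 11.3% of cases. Other nuclear genes no longer than the longest tRNA gene (122 bp) were listed in 8.63% of 18917 cases, and 15363 of those were piRNA genes. With the thresholded set, 92 tRNA genes (15%) had a summit, against 1.84% of all nuclear genes, 0.358% of tiles and 0.777% of the other short genes. These shares are descriptions, and the difference between tRNA genes and the background was not tested.

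Neighbouring genes often shared a summit, so the 460 listed genes corresponded to 420 distinct summits and the 92 thresholded genes to 79. The highest value per listed tRNA gene ran from 15.2 to 192.5 with a median of 52.77 and a middle 50% from 35.83 to 72.21. The median of all nuclear summits in the pooled list was 22.23, and 419 of the listed tRNA genes reached it. The tRNA genes were not at the very top of the list, which reached 622.8. Within the thresholded set their median was 100.1, against 110.3 for all 778 thresholded summits. The tRNA medians take the highest summit per gene and count a shared summit for each of its genes. The medians of all summits count every summit once.

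Each replicate gave a similar picture on its own scale. Replicate 1 listed 447 tRNA genes (73%, against 10.9% of tiles), with values from 9.681 to 214.1 and a median of 28.38, where the median of all its summits was 13.83. Replicate 2 listed 415 (67.8%, against 10.1% of tiles), with values from 10.13 to 118.4 and a median of 26.9, where the median of all its summits was 14.2. Both replicates listed 361 genes, replicate 1 alone listed 86, replicate 2 alone 54, and neither listed 111. In 98 genes no summit was found in any of the 3 lists. The same overlap between lists was not counted over all genes or tiles. Over the 361 genes listed in both, Spearman's rho between the replicate values was 0.599, a description over points that share a control library, and neighbouring genes among them share summits.

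**Figure D1:**
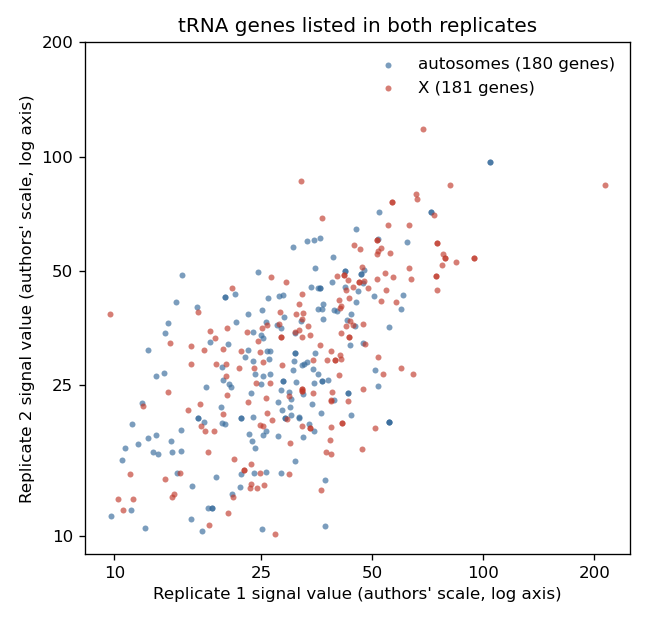
Each point is 1 of the 361 tRNA genes listed in both replicates, with the replicate 1 signal value on the horizontal axis and the replicate 2 signal value on the vertical axis, both logarithmic and each on its own scale. The values rise together with wide scatter (Spearman's rho 0.599), and genes on X (red) and autosomes (blue) overlap.

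At the top of the lists the replicates overlapped in part. When the 778 highest summits of each replicate were taken, replicate 1 placed 96 tRNA genes among them and replicate 2 placed 81, and 58 genes were in both. Of the 92 thresholded genes, 71 were in the top of replicate 1, 73 in the top of replicate 2, 58 in both and 6 in neither. How many of all 778 summits the replicates shared was not counted, so this overlap is not shown to be particular to tRNA genes.

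The 12 highest summits at tRNA genes had pooled values of at least 134.8, and all 16 genes at them were also among the 778 highest summits of each replicate. The pooled list was made from these same replicates, so this overlap is not an independent check. The highest belonged to the pair T23F1.t1 (lysine) and T23F1.t2 (proline) on chromosome V, whose 3′ ends face each other across a gap that holds the summit. It had a value of 192.5 (rank 93 of the pooled list), 104.2 in replicate 1 (rank 81) and 96.62 in replicate 2 (rank 106). The glutamine gene R04A9.t1 came next at 182 (rank 109), with 68.59 in replicate 1 (rank 235) and 118.4 in replicate 2 (rank 65). Its summit lay 96 bp upstream of the gene's 5′ end, and 118.4 was the highest value of any tRNA gene in replicate 2.

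The asparagine gene F41D9.t3, in an intron of sulp-3 on the opposite strand, had 156 in the pooled list, 81.08 in replicate 1 and 84.11 in replicate 2. The arginine gene C18A11.t2 differed more between replicates. It had the highest replicate 1 value of any tRNA gene, 214.1 (rank 7), but 84.23 in replicate 2 (rank 154), and 154.3 in the pooled list. The divergent pair M02F4.t1 (glycine) and M02F4.t2 (glutamic acid) had 148.1 in the pooled list, and ranked 100 in replicate 1 but 468 in replicate 2. The leucine gene C04A11.t1, with no identical copy elsewhere in the nuclear genome, had 147.4, with 65.98 in replicate 1 and 77.22 in replicate 2.

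Of these 12 summits 10 were on X. The autosomal ones were the T23F1 summit and 1 on chromosome II at 141.2, which served the threonine gene W09G10.t3 and the lysine gene W09G10.t2. The highest gene of the other autosomes was B0350.t1 (lysine) on IV at 119.7, sup-5 (tryptophan) on III at 107, in an intron of fli-1, and C37A2.t1 (cysteine) on I at 106, in an intron of cye-1, which encodes cyclin E.

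Genes on X were thresholded more often than genes on autosomes. Over all genes, 62 of 276 on X (22.5%) had a thresholded summit and 30 of 336 on autosomes (8.93%) did. On the single autosomes the count was 3 of 66 on I, 5 of 57 on II, 9 of 64 on III, 7 of 71 on IV and 6 of 78 on V, so the highest autosomal share was 14.1%, on III. Because neighbours share summits, the test used the first gene of each of the 476 loci, a locus being a chain of tRNA genes no more than 1000 bp apart. There 48 of 195 loci on X (24.6%) and 23 of 281 on autosomes (8.19%) were thresholded, an odds ratio of 3.65 (exact 95% interval 2.08 to 6.56; two-sided Fisher's exact test, p = 1.51e-06, adjusted p = 9.07e-06 by Benjamini-Hochberg over 6 tests). The test counted identical copies at different loci separately, and how reads were placed among such copies is unknown. Among tiles, 0.495% on X and 0.329% on autosomes held a thresholded summit. Whether the contrast at tRNA genes exceeds that in tiles was not tested.

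The same direction was present in each replicate. Among the 778 highest summits of replicate 1 were 64 tRNA genes on X (23.2%) and 32 on autosomes (9.52%), and among those of replicate 2 were 52 on X (18.8%) and 29 on autosomes (8.63%). These shares compare sites within a list, and tile shares on X and autosomes were not taken for these replicate sets. Genes are not replicates, and no p here measures the spread between animals.

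For the lenient criterion the difference between X and autosomes was small. On X 218 genes (79%) were listed and on autosomes 242 (72%), against 11.8% and 11.2% of tiles. Per locus the shares were 80% and 71.2%, an odds ratio of 1.62 (1.03 to 2.58), which missed the threshold after adjustment (Fisher's exact test, p = 0.032, adjusted p = 0.0515). It passed under several other settings, among them a window of 100 bp, with an odds ratio of 1.84 (adjusted p = 0.00897, Fisher's exact test). The median value of the listed genes was 56.18 on X and 46.61 on autosomes in the pooled list, 32.14 and 25.83 in replicate 1, and 30.03 and 25.21 in replicate 2. All nuclear summits had close medians on both, 22.5 on X and 22.18 on autosomes in the pooled list.

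**Figure D2:**
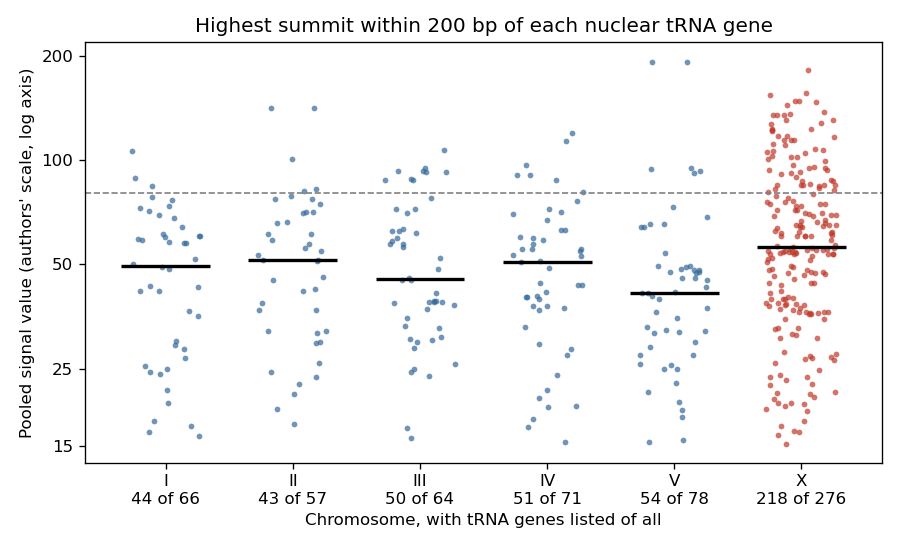
Each point is a listed tRNA gene, placed by chromosome, with its highest pooled signal value within 200 bp on a logarithmic axis; black bars are medians, the dashed line is the lowest thresholded value (80.31), and the labels give listed genes of all. X (red) holds 62 genes above the line and each autosome (blue) 3 to 9, while values on every chromosome reach down to about the bottom of the list.

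Part of the X genes' neighbourhood differs from that of the autosomal genes, since 180 of 276 tRNA genes on X were intergenic, against 139 of 336 on autosomes. The X share was above the autosomal share within both settings. Among intergenic genes 44 of 180 on X (24.4%) and 21 of 139 on autosomes (15.1%) were thresholded. Among genes in introns the counts were 17 of 95 on X (17.9%) and 9 of 188 on autosomes (4.79%). Per locus, the odds ratio was 2.38 among intergenic genes (Fisher's exact test, adjusted p = 0.0319) and 3.68 among intronic genes (Fisher's exact test, adjusted p = 0.0184). Of the 612 genes 104 lay within 500 bp of a coding 5′ end. Without genes that close, the odds ratio for X against autosomes was 4.35 (Fisher's exact test, adjusted p = 1.07e-05), from 41 of 173 and 15 of 226 loci.

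Genes inside introns were thresholded less often than intergenic genes. Of 283 intronic tRNA genes 201 (71%) were listed and 26 (9.19%) thresholded, and of 319 intergenic genes 250 (78.4%) were listed and 65 (20.4%) thresholded. Tiles were listed in 10.3% of cases in introns and in 10.3% between genes, and were thresholded in 0.242% and 0.599%, so the thresholded share was lower in introns across the genome as well. Whether the contrast at tRNA genes exceeds that in tiles was not tested. Per locus, 21 of 231 intronic and 49 of 235 intergenic genes were thresholded, an odds ratio of 0.38 (0.208 to 0.674; Fisher's exact test, p = 4.21e-04, adjusted p = 0.00126). The listed shares, 70.1% and 78.7%, gave an odds ratio of 0.635 (0.407 to 0.987; Fisher's exact test, p = 0.0343, adjusted p = 0.0515). In replicate 2 alone the listed shares were close, 66.8% of all intronic and 68.7% of all intergenic genes, and the odds ratio per locus was 0.919 (adjusted p = 0.691, Fisher's exact test). Within X alone the thresholded odds ratio was 0.588, from 13 of 71 intronic and 34 of 123 intergenic loci (Fisher's exact test, adjusted p = 0.249). Within autosomes alone it was 0.342, from 8 of 160 and 15 of 112 loci (Fisher's exact test, adjusted p = 0.0515). Neither passed. X held 123 of the 235 intergenic loci but 71 of the 231 intronic ones, so the joint ratio of 0.38 mixes chromosome and setting. The part of chromosome in that ratio was not tested. Another 10 tRNA genes overlapped an exon; 9 of them were listed and 1, the glutamic acid gene C28G1.t1 at 127.2, was thresholded.

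The 283 intronic genes sat in 219 host genes. With the host on the same strand 115 of 160 (71.9%) were listed and 12 thresholded, and with the host on the opposite strand 86 of 122 (70.5%) were listed and 14 thresholded. The remaining gene lay in more than 1 host and was placed in neither class. The highest intronic genes were R04A9.t1 (182), F41D9.t3 (156) and the isoleucine gene C02D4.t1 (134.8) in ser-2, a tyramine receptor gene, all on X and all opposite to their host. Of 14 hosts with 3 or more tRNA genes, pash-1, which encodes the Drosha partner in microRNA processing, had 0 of 3 listed. In brd-1, the BARD1 orthologue, all 3 were listed between 57.25 and 63.13, and in the ion channel gene unc-58, 2 of 3 were listed, at 92.47 and 54.3.

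**Figure D3:**
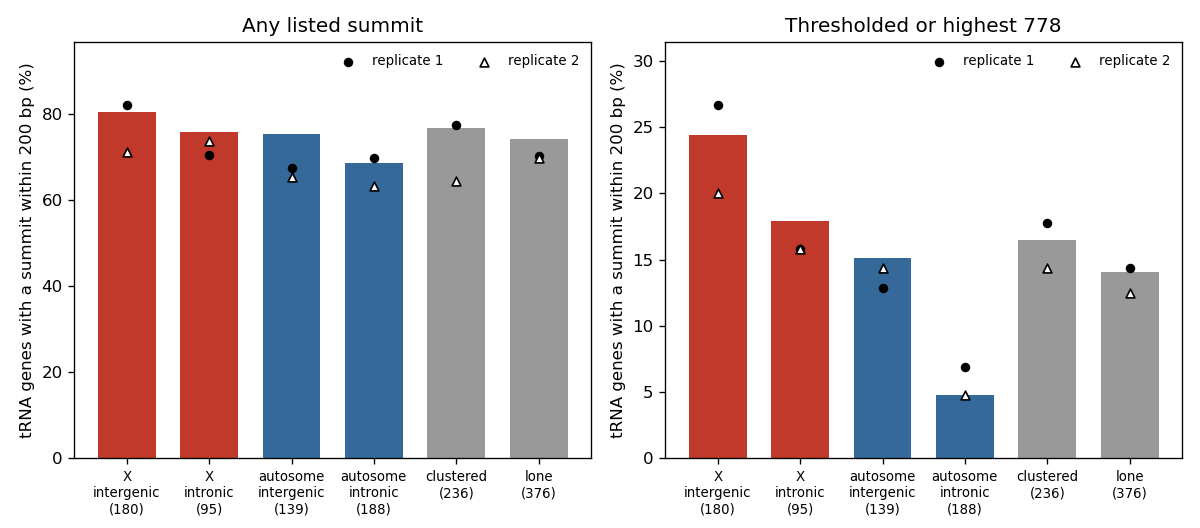
Bars give the share of tRNA genes (%) with a summit within 200 bp in the pooled list (left) or the thresholded set (right), by chromosome and setting and by clustering, with the number of genes in brackets; circles and triangles give replicates 1 and 2, on the right for their 778 highest summits. On the right the share falls from 24.4% for intergenic genes on X to 4.79% for intronic genes on autosomes, while clustered and lone genes, each taken over all chromosomes, are close.

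Taken over all chromosomes together, clustered and lone genes did not differ detectably. A gene was clustered when another nuclear tRNA gene lay within 1000 bp, which held for 236 genes in 100 loci, and 376 genes were lone. Among clustered genes 181 (76.7%) were listed and 39 (16.5%) thresholded, and among lone genes 279 (74.2%) and 53 (14.1%). Per locus the odds ratio was 1.16 for being listed (exact interval 0.678 to 2.06, adjusted p = 0.606 by Fisher's exact test) and 1.34 for being thresholded (exact interval 0.698 to 2.47, adjusted p = 0.413 by Fisher's exact test). Both intervals run from below 1 to more than 2, so they allow a difference in either direction, and the listed ratio changed direction under other settings. X held 135 of the 236 clustered genes and 141 of the 376 lone genes. The ratios were below 1 on X alone (0.535 listed, 0.834 thresholded) and above 1 on autosomes alone (2.14 and 1.92). None of these ratios within X or autosomes passed after adjustment, so the joint ratios mix 2 directions that were not resolved. When a locus was counted if any of its genes was listed, 96 of 100 clustered loci were listed, an odds ratio of 8.32 (Fisher's exact test, adjusted p = 5.24e-07), but a locus with more genes has more windows in which a summit can fall.

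Shares by cluster size and arrangement varied and were not tested. The larger sizes rest on few loci (14 of 3 genes, 4 of 4, 2 of 5 and 2 of 6), and genes of a locus can share a summit. In the 78 loci of 2 genes 132 of 156 genes (84.6%) were listed and 34 (21.8%) thresholded. In loci of 3 genes the counts were 28 of 42 listed and 2 thresholded. Loci of 4 genes had 9 of 16 listed, loci of 5 had 5 of 10 and loci of 6 had 7 of 12. Among the pairs, 15 were convergent, with 3′ ends facing each other, and 11 of their 30 genes, in 7 of the 15 loci, were thresholded. The 37 divergent pairs had 13 of 74 genes thresholded, in 8 loci, and the 26 tandem pairs 10 of 52, in 6 loci. In 22 of the 29 divergent pairs with both genes listed, 1 summit served both genes, and in 16 of the 22 it lay between them. Divergent pairs were also closer, with a median gap of 160 bp against 307 bp for convergent and 516 bp for tandem pairs.

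The 8 loci of 4 or more genes varied. Most genes were listed in the F22F1 locus (5 of 6, from 21.44 to 73.83), the T01B4 locus of 4 identical valine genes (3 of 4) and the K01A12 locus (3 of 5), all on X, and in the Y65A5A locus on IV (3 of 4); none of these was thresholded. The F28H6 locus holds 6 identical histidine genes, of which 2 were listed, at 27.59 and 30.7. The R11 locus holds 4 identical tyrosine genes, of which 2 were listed, at 37.18 and, thresholded, at 111.3. In the H08J11 locus, 5 glutamine genes in an intron of the junction gene ajm-1, 2 genes were listed and both had the thresholded value 84.97. On chromosome I the C12C8 locus of 4 identical glycine genes had 1 listed, at 25.42. Clustered genes with an identical copy in their own locus were listed in 88 of 121 cases (72.7%) and thresholded in 13 (10.7%), and clustered genes without one in 93 of 115 (80.9%) and 26 (22.6%). Reads from identical sequence can be placed at more than 1 copy, and how the authors placed them is not given in the sources used here; its part in these values was not tested.

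Identical genes stood at very different places in the pooled list, in which the placement of reads that match more than 1 copy is unknown. The 612 genes had 200 distinct sequences, of which 143 occurred once. In 20 groups of 10 or more identical copies there were 317 genes, of which 266 were listed. The group medians of the listed copies ran from 37.62 to 66.82. In 19 of the 20 groups at least 1 copy was not listed, the exception being a group of 15 glutamic acid genes that were all listed, from 40.35 to 127.2. A thresholded copy occurred in 18 groups, the exceptions being 12 valine and 11 glycine genes whose highest values were 65.09 and 63.92.

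The proline sequence printed for T23F1.t2 occurred 24 times. Its copies had pooled values from 192.5 at T23F1.t2 (rank 93) down to 16.38 at ZK678.t3 (rank 23031), an intronic gene on X, and 7 copies were not listed, among them ZK970.t1 in an intron of clpp-1, for which replicate 1 alone gave a value of 32.39. The glutamine sequence of R04A9.t1 occurred 15 times; the next copy, H08J11.t3, had 84.97, the other listed copies lay between 16.93 and 60.51, and 3 were not listed. R04A9.t1 thus stood apart from its own copies in the pooled list and in both replicates, where the next copy had 42.03 in replicate 1 and 48.67 in replicate 2. All 10 copies of the arginine sequence of C18A11.t2 were on X, with 9 listed from 23.69 to 154.3 and T01C1.t1 in none of the 3 lists.

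Copies of the other printed sequences also differed. The lysine sequence of T23F1.t1 (14 copies) ran from 29.79 to 192.5 with 3 copies not listed. The alanine sequence of F15G9.t2 (15 copies) ran from 19.52 to 117.7 with only C56G3.t1 not listed. The serine sequence of C53C7.t1 (11 copies) ran from 20.57 to 134.9 with only F22F1.t4 not listed. The histidine sequence of C06G1.t1 (11 copies) had 6 listed, from 24.37 to 104.9, and 4 of the 5 unlisted copies were in the F28H6 cluster. The phenylalanine gene F22B7.t3 had 92.65, while its identical neighbour F22B7.t4 in the same host gene was not listed there. In replicate 1 both copies had about the same value, 30.44 at F22B7.t3 and 30.55 at F22B7.t4, and in replicate 2 F22B7.t3 had 57.6 and F22B7.t4 was not listed. The threonine sequence of R11B5.t1 (15 copies) ran only to 84.51, with 2 copies not listed.

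**Figure D4:**
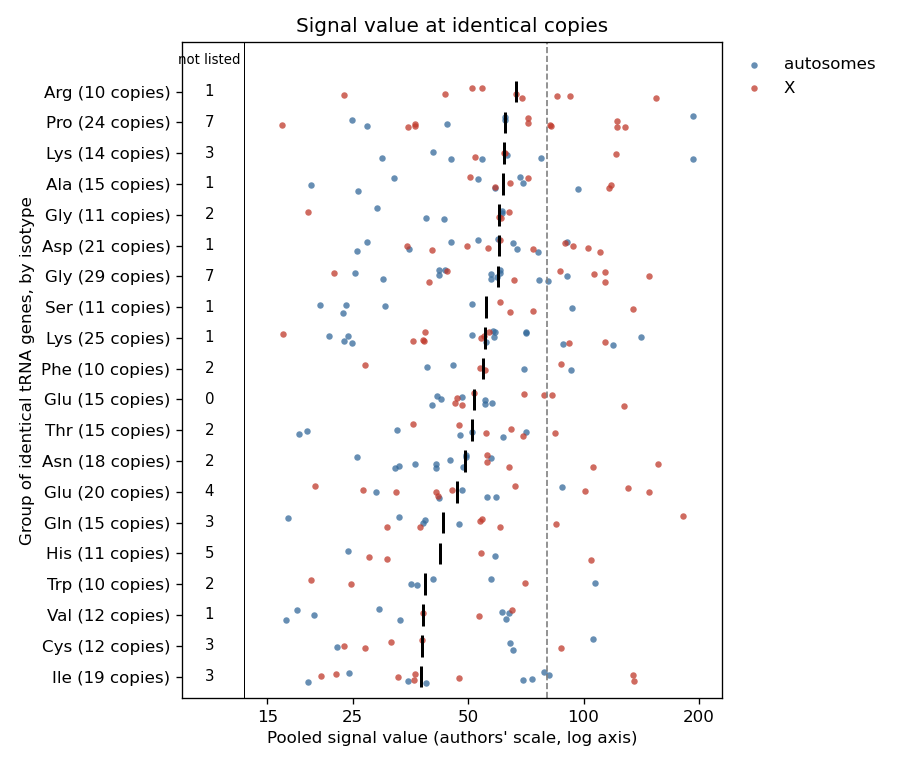
Each row is a group of 10 or more identical tRNA genes, each point the pooled signal value of 1 listed copy on a logarithmic axis (X in red, autosomes in blue), the black bar the median of the listed copies, and the number at the left the copies not listed; the dashed line is the lowest thresholded value. The 24 proline copies run from the lowest listed value of any group (16.38) to the highest (192.5, at a summit shared with a lysine copy), and 19 of the 20 groups have a copy that is not listed.

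Among these identical genes the X copies were again thresholded more often, 38 of 154 (24.7%) against 15 of 163 autosomal copies (9.2%). In 19 groups both X and autosomal copies were listed, and the X median was higher in 13 and lower in 6. Among glycine genes of the 29-copy group, for example, the medians were 86.72 on X and 57.25 on autosomes, whereas among the 12 cysteine genes they were 31.48 and 64.77. Copies shared neighbourhoods with other tRNA genes and these counts were not tested.

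Genes that occurred once were listed less often than repeated ones. Of the 143 single-copy genes 81 (56.6%) were listed and 15 (10.5%) thresholded. With 2 to 9 copies 113 of 152 (74.3%) were listed and 24 thresholded, and with 10 or more copies 266 of 317 (83.9%) were listed and 53 (16.7%) thresholded. The listed share rose with copy number in both replicates as well, from 56.6% to 71.1% to 81.4% in replicate 1 and from 50.3% to 67.1% to 76% in replicate 2. It rose on X (64.9%, 78.5% and 84.4%) and on autosomes (51.2%, 71.3% and 83.4%). Over all genes the thresholded share was 10.5%, 15.8% and 16.7%, but it did not follow this order within autosomes or within X. On autosomes it was 9.3%, 8.05% and 9.2%, and on X it was 12.3%, 26.2% and 24.7%. The lowest listed share was that of single-copy genes in introns, 31 of 66 (47%), where 48 of 74 single-copy intergenic genes (64.9%) were listed. These differences were noticed in the data and were not tested. How reads that match more than 1 copy were placed is not given in the sources used here, and its part in these shares was not tested.

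The single-copy gene with the highest value was C04A11.t1 (147.4), a lone gene whose summit lay inside it. The next, W09G10.t3 (141.2), shared its summit with W09G10.t2, which has 25 identical copies.

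By amino acid the share listed in the pooled list ran from 10 of 19 for tyrosine (52.6%) to 25 of 27 for aspartic acid (92.6%), leaving out the single selenocysteine gene, which was listed at 37.88. The order differed in the replicates. Tyrosine had 63.2% listed in each, and the lowest amino acid was histidine in replicate 1 (60%) and isoleucine in replicate 2 (51.7%). In the pooled list threonine (29 of 34), glutamic acid (34 of 41) and alanine (28 of 34) were also high, and histidine (12 of 20) and arginine (28 of 44) low. Alanine had the highest thresholded share, 9 of 34 (26.5%), and the highest pooled median, 61.87. Among the 778 highest summits of each replicate, however, aspartic acid was ahead of alanine. The shares were 29.6% and 26.5% in replicate 1, and 22.2% and 17.6% in replicate 2. Valine had 25 of 31 listed but 1 thresholded, R04D3.t2 at 144.3, with a median of 39.69. The 5 genes with no assigned amino acid had 4 listed with a median of 19.42, below the median of the whole list. No test was made across amino acids, whose genes share sequences and loci.

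The tRNA genes known from genetics varied as widely. The tryptophan loci sup-5, sup-7, sup-21, sup-24, sup-28, sup-29 and sup-33 are named for mutations that let the tRNA read an amber stop codon, and all have the same sequence in the reference. sup-5 had 107 in the pooled list, 60.71 in replicate 1 and 43.11 in replicate 2, and it alone of the 7 was thresholded. sup-7 had 70.56, with 26.61 in replicate 1 and 48.16 in replicate 2. sup-24 (40.46), sup-28 (24.78) and sup-21 (19.47) followed. sup-29 and sup-33 were in none of the 3 lists, although sup-33 lies in the same host, trk-1, as sup-28. Of the 5 glutamic acid genes named rte, rte-5 (130.7) and rte-1 (100.6) were thresholded, and rte-2 (59.18), rte-4 (42.01) and rte-3 (41.33) were not.

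A listed gene has a summit within 200 bp by the rule, so only the place of the highest summit within that window is described first. A typical gene covers 72 of the 472 bp of its window, and no comparison with summits placed at random was made. Among the 460 listed genes the highest summit was inside the gene in 163 cases (35.4%), upstream in 170 (37%) and downstream in 127 (27.6%). In the 279 listed lone genes, which have no other tRNA gene within 1000 bp, though some lie near a coding 5′ end, 118 (42.3%) were inside, 87 (31.2%) upstream and 74 (26.5%) downstream. Their median offset was 26 bp downstream of the gene's 5′ end, with the middle 50% from 12.5 bp upstream to 74.5 bp downstream of it, in genes that are typically 72 bp long. Around lone genes on X the fullest 50 bp bin, just 5′ of the gene centre, held 28.4 summits per 100 genes, and on autosomes the same bin held 17.4. For thresholded summits that bin held 7.09 per 100 genes on X and 1.7 on autosomes. Such bins take in summits inside and outside the window. From 200 to 2000 bp from the centre, no bin held more than 4.26 pooled summits per 100 genes on X or 3.4 on autosomes.

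**Figure D5:**
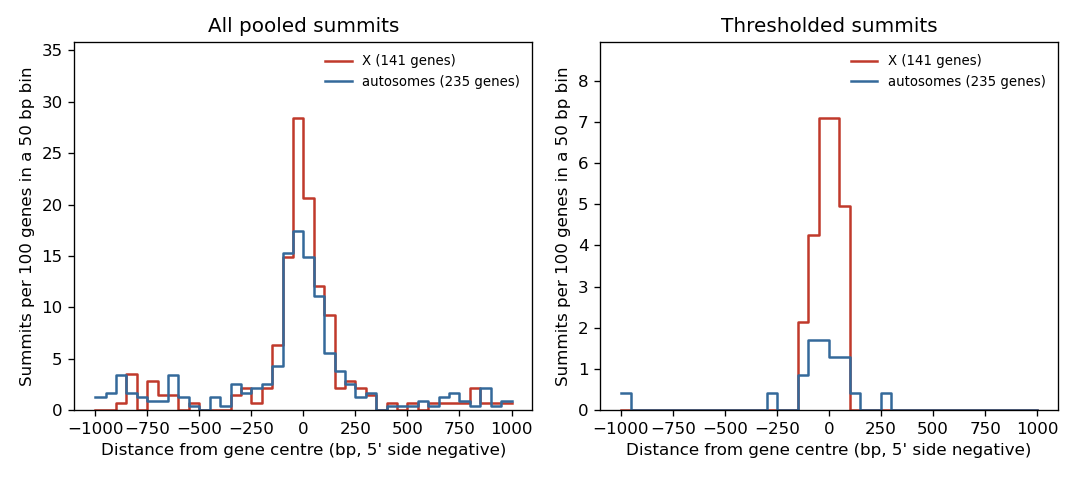
Number of summits per 100 lone tRNA genes in bins of 50 bp, by distance in bp from the gene centre (5′ side negative), for 141 genes on X (red) and 235 on autosomes (blue), with all pooled summits on the left and thresholded summits on the right. Both classes peak at the gene, at 28.4 and 17.4 on the left and at 7.09 and 1.7 on the right.

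Few genes sat at the edge of the window. Just inside 200 bp were T04D3.t1 (nearest summit at 192 bp, value 17.07), R09E10.t1 (192 bp, 16.93), T22F3.t4 (197 bp, 15.58), C05G6.t1 (198 bp, 62.85) and C28G1.t5 (200 bp, 39.61). Just outside were F12D9.t6 (205 bp, 37.86), B0344.t3 (208 bp, 19.58) and M03A1.t2 (210 bp, 25.91).

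Matches to the promoter boxes were frequent both in genes with a summit and in genes without one, at somewhat lower shares in the latter; these differences were not tested. The B box form GTTCNANNC occurred in the last 30 bases of 587 of 612 genes (95.9%), in 446 of 460 listed genes (97%), in 141 of 152 genes not listed (92.8%) and in 90 of 92 thresholded genes. Both strands of tiles searched in the same way held it in 0.836% of cases, and the other strand of the tRNA genes in 0 of 612. The A box form TNGNNNANT, which fixes fewer letters and was found in 24.7% of tiles, occurred in the first 30 bases of 495 genes (80.9%), in 83% of listed genes, 74.3% of genes not listed and 79.3% of thresholded genes. Both boxes were present in 473 genes (77.3%), in 80% of listed and 69.1% of unlisted genes, and in 0.131% of tiles. A run of TTTT within 20 bases after the gene, the form of the terminator, followed 602 genes (98.4%), 457 of 460 listed and 145 of 152 not listed, against 25.8% of tiles. A match is a run of letters and does not show binding of TFIIIC, and the forms were chosen after the sequences were seen.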

How the data were processed

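ChIP-seq peak lists of 2 replicates of 1 group were used, as 4 lists on genome build ce11 (each replicate, both pooled, and the thresholded set). The deposited score, the signal value in column 7, is the peak caller's value over a control shared by both replicates, per the file descriptions; column 10 gives the summit. The aligner, peak caller, versions, threshold and depth are not given in the sources used here. Lists on ce10 were not used here. Each summit was counted separately, and mitochondrial summits were left out.

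Genes came from Ensembl release 115 (WBcel235, the assembly of ce11). Amino acids and sequences came from RefSeq, where all 612 genes matched. Host introns and coding 5′ ends are those of protein-coding genes. Tiles were consecutive 472 bp windows of the nuclear genome. Shares were compared by two-sided Fisher's exact tests over 1 gene per locus, adjusted by Benjamini-Hochberg over 6 tests, with exact 95% intervals; the test step was checked on simulated data. P-values describe classes of sites within a list and not the spread between the 2 replicates. In every test identical copies at different loci were counted as separate sites. Analyses used Python 3.11.15, numpy 2.4.6, pandas 2.3.3 and scipy 1.17.1.

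Named genes are those at the 12 highest summits, the highest on each chromosome, the highest intronic and clustered genes, the highest and an unlisted copy of groups of 10 or more identical genes, and those at the edge of the window. Other genes, such as the sup and rte loci, large clusters, hosts and single-copy examples, were chosen after their values were seen. The members, lists and comparisons were chosen with earlier results of these data known. Alternatives within X, autosomes, intronic or intergenic genes, and without genes near coding 5′ ends, were added after seeing the data. For each of these the new p replaced the main p of the same comparison among the 6 before adjustment. No adjusted p counts the number of alternatives tried.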

Additional observations from a re-analysis of the deposited data

How the results depend on the processing

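Values are odds ratios unless said otherwise, and the cause of the changes was not tested. The thresholded difference between X and autosomes kept its direction and passed under all 11 alternatives (2.38 to 8.32, the latter with the higher-valued 50% of the thresholded set; leaving out a replicate, 2.89 to 3.75). The listed difference between X and autosomes passed with windows of 100 bp (1.84) and 500 bp (2.06) and with listed regions overlapping the gene (1.7). It also passed with a locus counted if any gene is (2.52) and with summits at or above the list's median (1.58). Without replicate 2 it passed (1.83, adjusted p = 0.0102, Fisher's exact test), but without replicate 1 it did not (1.6, adjusted p = 0.0543, Fisher's exact test). For clustered against lone genes, the listed ratio turned with a 100 bp window (0.768), on X alone (0.535) and without replicate 1 (0.732 to 1.59 over both replicates), and passed with a 500 bp window (2.7) and with any gene of a locus (8.32). Their thresholded ratio turned on X alone (0.834) and passed with any gene of a locus (2.03) and with the higher-valued 50% of the set (2.67). For intronic against intergenic genes, the listed ratio passed with a 500 bp window (0.608) and any gene of a locus (0.555). With replicate 1 or 2 alone, however, it was 0.724 and 0.919 (adjusted p = 0.147 and 0.691, Fisher's exact test). Their thresholded ratio no longer passed on X alone (0.588) or autosomes alone (0.342). The number of genes listed was 415 to 493 of 612 under the other windows, regions and replicates, and 92 with the thresholded set. Giving each summit to its nearest gene only lowered the median value to 49.64 over 430 genes. No paired analysis was possible because there is 1 group. Depth is unknown, so a gene not listed is not shown to lack signal.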
